A study of Homo sapiens with 6 samples.

Results

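The aminoacyl-tRNA synthetases are described here as 36 genes, 20 for enzymes of the cytosol and 16 for enzymes of the mitochondrion, out of 30341 genes present in both deposited tables. They are defined by name, as members of the family. A mitochondrial enzyme is one whose symbol ends in 2. All libraries came from K562, a human chronic myeloid leukaemia line that carries the BCR-ABL1 fusion, and the parental cells are labelled WT. The groups were untreated parental cells, the same line exposed for 48 h to doxorubicin at 225 ng/ml, and 4 anthracycline-tolerant clones (ATC1 to ATC4) maintained in 225 ng/ml doxorubicin. Doxorubicin is an anthracycline that intercalates in DNA and poisons topoisomerase II. The clones came from 480 wells of 10000 cells first given 100 ng/ml and then 225 ng/ml, of which 21 held viable cells after 4 weeks and 4 could be kept growing. Each clone is 1 library from 1 well, so a selected state and the continued presence of the drug cannot be told apart. The labels name 1 parental sample with 2 libraries, Parental_1, tabulated with the clones, and Parental_2, tabulated with the 48 h library. The labels do not say whether these were 2 cultures or 2 preparations of 1 culture.

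Each synthetase joins 1 amino acid to its tRNA in a reaction driven by ATP, and this charging step sets the fidelity with which the genetic code is read. Most amino acids have separate enzymes for the cytosol and the mitochondrion, all encoded in the nucleus; GARS and KARS each serve both compartments, EPRS charges glutamate and proline from 1 chain, and FARSA and FARSB are the subunits of 1 enzyme. When charging falls short, uncharged tRNA activates the kinase GCN2, eIF2 is phosphorylated and the transcription factor ATF4 is made, which acts through C/EBP-ATF response elements on genes of amino acid synthesis and transport and on many cytosolic synthetases.

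The response-element core TGATGNAA was looked for on both strands of promoter windows that run from 250 bases before to 50 bases after a start site, from RefSeq on GRCh38.p14. Of the 20 cytosolic genes 16 had a window, and 7 of these (43.8%) held the core, in 7 of their 21 windows (33.3%). Of the 16 mitochondrial genes 14 had a window and 1 (7.14%) held it, in 1 of 18 windows (5.56%). Among all 35116 windows 3.62% held the core, and among all 27305 genes with a window 4.46% did. The 8 matches are shown because they divide the cytosolic members in a way that the counts below can be set against. Each is printed 5′ to 3′ on the gene's own strand with the core or its reverse complement in capitals, and the stretches lie at chr16:70289656-70289723 (minus strand) for AARS, chr11:3057394-3057455 (minus strand) for CARS, chr7:30594815-30594882 (plus strand) for GARS, chr9:92293673-92293740 (minus strand) for IARS, chr12:57488034-57488097 (plus strand) for MARS, chr18:57621807-57621852 (minus strand) for NARS, chr5:33440937-33440994 (plus strand) for TARS and chr12:32756057-32756124 (minus strand) for YARS2.
AARS: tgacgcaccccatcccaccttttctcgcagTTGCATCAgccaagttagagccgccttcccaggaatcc
CARS: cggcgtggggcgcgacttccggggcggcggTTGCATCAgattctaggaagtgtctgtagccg
GARS: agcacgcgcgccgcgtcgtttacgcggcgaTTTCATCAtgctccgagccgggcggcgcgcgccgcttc
IARS: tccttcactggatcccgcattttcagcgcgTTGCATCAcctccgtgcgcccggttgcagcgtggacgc
MARS: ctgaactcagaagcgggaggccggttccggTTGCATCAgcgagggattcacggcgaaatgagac
NARS: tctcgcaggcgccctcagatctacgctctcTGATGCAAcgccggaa
TARS: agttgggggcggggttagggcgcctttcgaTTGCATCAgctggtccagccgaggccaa
YARS2: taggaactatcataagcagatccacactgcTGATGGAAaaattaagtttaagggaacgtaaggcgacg
The word was TTGCATCA, the reverse complement of TGATGCAA, in AARS, CARS, IARS, MARS and TARS. The others were TTTCATCA in GARS, TGATGCAA in NARS and TGATGGAA in YARS2. A match describes these letters and is not by itself a bound site.

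The libraries held 12537146 to 21361758 counts, with Parental_2 and the 48 h library the shallowest. Every member was well covered, with at least 142 counts in every library and at most 16618. Levels within 1 gene are given as CPM, the read count relative to library size after TMM scaling, a scaling by a trimmed mean of log ratios between libraries. Erythroid genes, among them HBG1, HBE1 and GATA1, were expressed in every library, as were BCR and ABL1. Counts per gene do not measure the BCR-ABL1 fusion itself. The 12 erythroid and line markers had a median log2 ratio of -0.52 in Parental_2 against Parental_1. Of 6 megakaryocytic markers, ITGA2B, ITGB3 and GP1BA were above both parental libraries in all 4 clones, beside 17.8% of expressed genes. Of 7 measured genes listed as markers of other cell types, the summed level was 215 CPM in Parental_1, 570.2 in Parental_2, 237 to 535 in the clones and 214 at 48 h. Most of it was PTPRC, a leukocyte gene, at 150.3 CPM in Parental_1 and 515 in Parental_2. Because K562 is itself a leukaemia line, this sum does not measure cells of other types. Among these 7 markers COL1A1, COL1A2 and DCN, genes of fibroblasts, were above both parental libraries in all 4 clones, beside the same 17.8%. DCN had few counts, 3 in Parental_1 and 1 in Parental_2, and 24, 28, 25 and 5 in ATC1 to ATC4. COL1A1 was at 1.77 CPM in Parental_1 and 1.27 in Parental_2, 20.4, 8.46, 6.70 and 60.9 in ATC1 to ATC4, and 22.1 at 48 h. CD3E, a T cell marker, stayed at or under 0.911 CPM in every library. The part of these shifts in the results below was not tested.

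Compared per kilobase of exon, the cytosolic enzymes were the more abundant class. Over the mean of the parental libraries the cytosolic members lay between 15.6 and 154 RPKM (TMM-scaled CPM divided by exon length in kilobases), with a median of 86.3, and the mitochondrial members between 3.82 and 79.3, with a median of 13.5. EPRS stood highest at 154 RPKM, followed by GARS at 146, AARS at 139 and VARS at 131. HARS at 15.6 and CARS at 16.3 RPKM were the lowest cytosolic members. IARS2 at 79.3 RPKM stood apart among the mitochondrial enzymes, whose next member, SARS2, was at 23.4, and CARS2 was the lowest at 3.82. The top of the cytosolic order differed between the parental libraries: in Parental_1 VARS led at 147 RPKM, ahead of EPRS at 100.1, and in Parental_2 GARS at 214 and EPRS at 208 led.

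**Figure D1:**
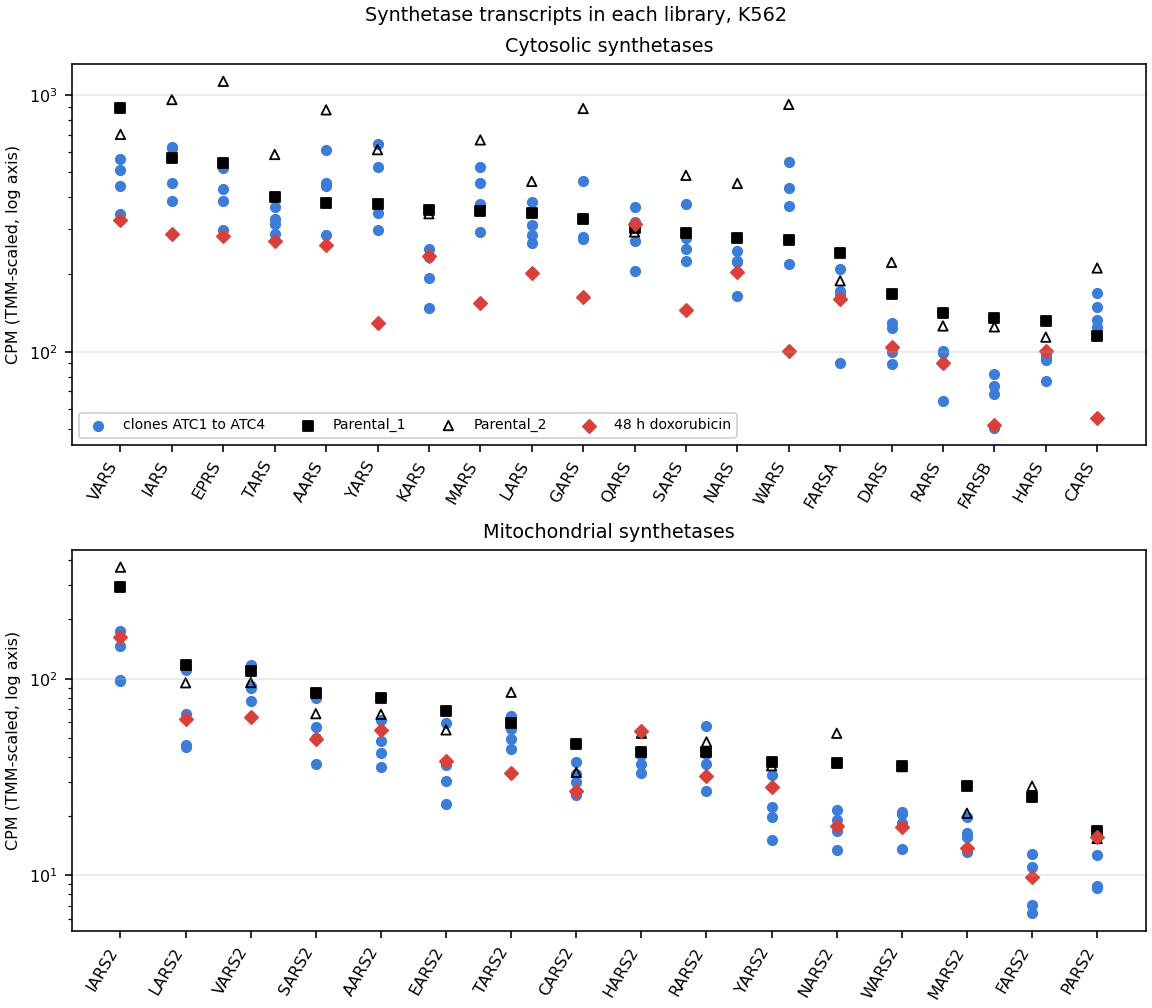
TMM-scaled CPM (log axis) of each synthetase in each of the 7 libraries, cytosolic enzymes above and mitochondrial enzymes below, ordered by Parental_1; blue circles are the 4 clones, the black square and open triangle are Parental_1 and Parental_2, and the red diamond is the 48 h library. The 48 h library is the lowest of all 7 for 12 of 20 cytosolic and 2 of 16 mitochondrial genes, and Parental_2 is the highest for 12 cytosolic and 4 mitochondrial genes.

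After 48 h of doxorubicin most synthetase transcripts were lower than in either parental library. The 48 h library lay below both for 19 of 20 cytosolic and 14 of 16 mitochondrial genes. The share of all genes below both by any amount was not computed. QARS and HARS2 lay above both, and PARS2 lay between. The ratio of QARS to Parental_1 was 1.03 (counting interval 0.995 to 1.08). That of HARS2 to Parental_2 was 1.02 (counting interval 0.921 to 1.14). Both intervals include 1, while those against the other parental library lie above it. With 1 library at 48 h there is no test, and the intervals given cover counting error only. Against Parental_2, 15 cytosolic and 7 mitochondrial genes were at least 1.5-fold lower (61.1% of members) and 0 were as much higher, where 22.9% of the 13865 genes with enough counts were that much lower and 22.6% that much higher. Against Parental_1, 15 cytosolic and 11 mitochondrial genes were at least 1.5-fold lower (72.2%), beside 23.1% of all genes. Against both at once the counts were 12 and 7 (52.8%), beside 14.6% of all genes. In these bulk libraries fewer cells of a kind and less RNA per cell cannot be told apart.

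The sizes at 48 h depended on the parental library, because the parental libraries themselves differed in the cytosolic enzymes. Parental_2 was at least 1.5-fold above Parental_1 for 10 of 20 cytosolic and 0 of 16 mitochondrial genes, beside 17.2% of 18777 expressed genes. The cytosolic genes took 0.591% of all counts in Parental_1 (exact 95% interval 0.588 to 0.594) and 0.978% in Parental_2 (0.972 to 0.983). In the clones they took 0.503% to 0.646%, and at 48 h 0.396% (0.392 to 0.399). The mitochondrial genes took 0.100% and 0.109% in the parental libraries, 0.0610% to 0.0916% in the clones and 0.0739% at 48 h. The cytosolic share at 48 h was thus the lowest of the 7 libraries, and the mitochondrial share at 48 h fell inside the range of the clones. The median log2 ratio of the cytosolic enzymes at 48 h was -1.23 against Parental_2 and -0.86 against Parental_1, and that of the mitochondrial enzymes was -0.57 and -0.82. The cytosolic median was therefore lower than the mitochondrial one by 0.65 on the log2 scale against Parental_2 but by 0.04 against Parental_1.

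In the clones no synthetase passed the test. Setting the 4 clones against Parental_1, with the spread taken from the clones, edgeR's quasi-likelihood test called 0 of 18300 genes lower (0.0%) and 0 higher (0.0%) at an adjusted p under 0.05, with adjusted p of 0.376 to 0.984 among the synthetases. At an unadjusted p under 0.05, 6 synthetases (16.7%) were lower and 0 higher, where 4.28% of all genes were lower and 7.5% higher. DESeq2 also called 0 synthetases, where it called 0.557% of all genes lower and 2.54% higher, and limma-voom called 0 synthetases and 0.0% of all genes in either direction. With both parental libraries as the reference edgeR called 1 synthetase lower, NARS2, and 0.579% of 16755 genes; that fit counts 2 libraries of 1 labelled sample as replicates. By overlap, all 4 clones lay below both parental libraries for 9 cytosolic and 8 mitochondrial genes (47.2%) and above both for 0. Of expressed genes 15.9% lay below and 17.8% above. Such counts take no account of how narrow a gap is. The mitochondrial count was 13 of 16 without ATC4, beside 20.1% of expressed genes, and 4 of 16 under scaling by library totals, beside 10.2%. Leaving out a clone can only keep or raise this count. ATC4 was the clone with the highest value for 11 of the 16, so the 20.1% over all genes is not a matched share.

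The enzymes of the multisynthetase complex, a cytosolic assembly that holds 8 of the enzymes on scaffold proteins, ranged from clearly lower to level at 48 h. EPRS (chr1:219968601-220046658, minus strand, GRCh38 as for all gene positions here) was at 546 CPM in Parental_1 and 1132 in Parental_2, 297, 431, 519 and 387 in ATC1 to ATC4, and 283 at 48 h. Parental_2 was the highest library, and the 48 h value was 4.01-fold below it and 1.93-fold below Parental_1. MARS, the methionine enzyme that also charges initiator tRNA, was at 355 CPM in Parental_1 and 669 in Parental_2, 378, 453, 526 and 292 in ATC1 to ATC4, and 155 at 48 h. Its clones overlapped the parental libraries, with ATC4 below both, while the 48 h value was lower than in every other library, at a ratio of 0.232 (95% interval 0.221 to 0.243) to Parental_2 and 0.437 (95% interval 0.417 to 0.458) to Parental_1. IARS, for isoleucine, was at 568 CPM in Parental_1 and 961 in Parental_2, 454, 629.8, 622 and 386 in ATC1 to ATC4, and 287 at 48 h. LARS, the leucine enzyme that also senses leucine for mTORC1, was at 347 CPM in Parental_1 and 461 in Parental_2, 313, 284, 385 and 266 in ATC1 to ATC4, and 203 at 48 h. For both genes the clones lay on either side of Parental_1 and below Parental_2, and the 48 h library was the lowest of all.

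The remaining members of the complex were DARS, KARS and RARS, whose clones all lay below both parental libraries, and QARS, whose clones lay on both sides. DARS, for aspartate, was at 168 CPM in Parental_1 and 223 in Parental_2, 99.8, 89.8, 124 and 129 in ATC1 to ATC4, and 104 at 48 h, with the 48 h library below both parental libraries as well. KARS, which charges lysine in both compartments, was at 357 CPM in Parental_1 and 345 in Parental_2, 193, 148, 252 and 234 in ATC1 to ATC4, and 236 at 48 h. RARS, for arginine, was at 141 CPM in Parental_1 and 126 in Parental_2, 101, 64, 99.2 and 90.3 in ATC1 to ATC4, and 90.5 at 48 h. For KARS and RARS ATC2 was the lowest clone, and the 48 h values fell among the clones. The edgeR log2 fold changes of the clones against Parental_1 were -0.58 (SE 0.29) for DARS, -0.77 (SE 0.34) for KARS and -0.65 (SE 0.31) for RARS, with adjusted p of 0.461, 0.430 and 0.448. QARS, for glutamine, was at 303 CPM in Parental_1 and 293 in Parental_2, 271, 207, 365 and 319.8 in ATC1 to ATC4, and 314 at 48 h. It was the cytosolic enzyme that did not go down at 48 h, with a ratio of 1.07 (95% interval 1.03 to 1.12) to Parental_2 and 1.03 (95% interval 0.995 to 1.08) to Parental_1. ATC1 and ATC2 lay below both parental libraries and ATC3 and ATC4 above both.

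For the 3 scaffold genes of the complex the log2 ratios of Parental_2 to Parental_1 were 0.58 for EEF1E1, -0.17 for AIMP2 and 0.31 for AIMP1. Those of the 8 enzymes ran from -0.16 (RARS) to 1.05 (EPRS), with a median of 0.41. EEF1E1, also called AIMP3, was at 106 CPM in Parental_1 and 159 in Parental_2, 46, 65.1, 57.6 and 79.7 in ATC1 to ATC4, and 67.2 at 48 h. AIMP2 was at 33.6 CPM in Parental_1 and 29.8 in Parental_2, 21.1, 21.4, 27.6 and 27.4 in ATC1 to ATC4, and 31 at 48 h. AIMP1 was at 77.3 CPM in Parental_1 and 95.9 in Parental_2, 72.1, 72.5, 84.9 and 52.8 in ATC1 to ATC4, and 71.9 at 48 h. The clones lay below both parental libraries for EEF1E1 and AIMP2 and overlapped them for AIMP1, and EEF1E1 was the scaffold past 1.5-fold at 48 h, with log2 ratios of -1.25 to Parental_2 and -0.66 to Parental_1. In the edgeR fit of the clones the scaffolds' unadjusted p were 0.0511, 0.199 and 0.732 in the same order.

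Among the 12 cytosolic enzymes outside the complex, WARS varied the most. WARS (chr14:100333788-100376805, minus strand), the interferon-inducible tryptophan enzyme, was at 273 CPM in Parental_1 and 920.1 in Parental_2, 219, 549.6, 433 and 371 in ATC1 to ATC4, and 101 at 48 h. All clones lay below Parental_2, 3 of 4 lay above Parental_1, and the 48 h library was 9.07-fold below Parental_2 and 2.69-fold below Parental_1. Its clones spanned a 2.51-fold range, the widest of the cytosolic class, and its edgeR log2 fold change was 0.55 (SE 0.50, adjusted p = 0.669). With Parental_2 in place of Parental_1 that value became -1.23, so the sign depends on the parental library. GARS (chr7:30594681-30634033, plus strand), the glycine enzyme of both compartments, was at 329 CPM in Parental_1 and 887 in Parental_2, 275, 331, 464 and 281 in ATC1 to ATC4, and 163 at 48 h. The 48 h value was 5.44-fold below Parental_2 and 2.02-fold below Parental_1, while the clones overlapped Parental_1. YARS, for tyrosine, was at 375 CPM in Parental_1 and 613 in Parental_2, 346, 525, 643 and 299 in ATC1 to ATC4, and 129 at 48 h. ATC3 alone exceeded both parental libraries, and the 48 h value was the lowest, 4.73-fold below Parental_2 and 2.90-fold below Parental_1, the lowest ratio of any cytosolic enzyme to Parental_1.

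AARS, for alanine, was at 379 CPM in Parental_1 and 876 in Parental_2, 286, 453, 609 and 441 in ATC1 to ATC4, and 260.4 at 48 h. CARS, for cysteine, was at 115 CPM in Parental_1 and 212 in Parental_2, 125, 169, 133 and 150.0 in ATC1 to ATC4, and 55.4 at 48 h. SARS, for serine, was at 290.1 CPM in Parental_1 and 487 in Parental_2, 225, 252, 377 and 277 in ATC1 to ATC4, and 146 at 48 h. In all 3 genes the clones lay below Parental_2 and the 48 h library below every other library, and CARS was the synthetase whose 4 clones all exceeded Parental_1. The edgeR log2 fold changes against Parental_1 were 0.26 (SE 0.43) for AARS, 0.34 (SE 0.30) for CARS and -0.02 (SE 0.35) for SARS, and CARS alone exceeded its error. Against Parental_2 AARS and CARS were at -0.97 and -0.55. TARS, for threonine, was at 401 CPM in Parental_1 and 587 in Parental_2, 287, 329, 367 and 315 in ATC1 to ATC4, and 269.8 at 48 h, and NARS, for asparagine, was at 277 CPM in Parental_1 and 453 in Parental_2, 224, 165, 246 and 226 in ATC1 to ATC4, and 205 at 48 h. Both had all clones below both parental libraries, with edgeR log2 fold changes of -0.29 (SE 0.28) and -0.35 (SE 0.31).

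VARS and FARSB were the cytosolic enzymes with the lowest levels in the clones relative to Parental_1. VARS (chr6:31777518-31795953, minus strand), for valine, was at 891 CPM in Parental_1 and 703 in Parental_2, 344, 442, 511 and 565 in ATC1 to ATC4, and 327 at 48 h. FARSB (chr2:222570536-222656337, minus strand), the beta subunit of the phenylalanine enzyme, was at 135 CPM in Parental_1 and 125 in Parental_2, 68.4, 50.6, 82 and 73.3 in ATC1 to ATC4, and 51.7 at 48 h. Neither overlapped between the clones and the parental libraries, and the edgeR log2 fold changes were -0.92 (SE 0.33, unadjusted p = 0.0281, adjusted p = 0.401) and -0.96 (SE 0.30, unadjusted p = 0.0151, adjusted p = 0.376). Against both parental libraries they were at -0.76 and -0.91. FARSA, the catalytic alpha subunit, was at 243 CPM in Parental_1 and 189 in Parental_2, 210.3, 90.3, 166 and 173 in ATC1 to ATC4, and 160.4 at 48 h. The subunits thus differed at 48 h, where the log2 ratio to Parental_2 was -1.28 for FARSB and -0.24 for FARSA, and to Parental_1 -1.38 and -0.60. HARS, for histidine, was at 132 CPM in Parental_1 and 114 in Parental_2, 95.4, 76.8, 98.8 and 92.7 in ATC1 to ATC4, and 101 at 48 h. The clones lay below both parental libraries and below the 48 h library, and the log2 ratio of -0.17 at 48 h against Parental_2 became 0.03 under scaling by library totals.

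**Figure D2:**
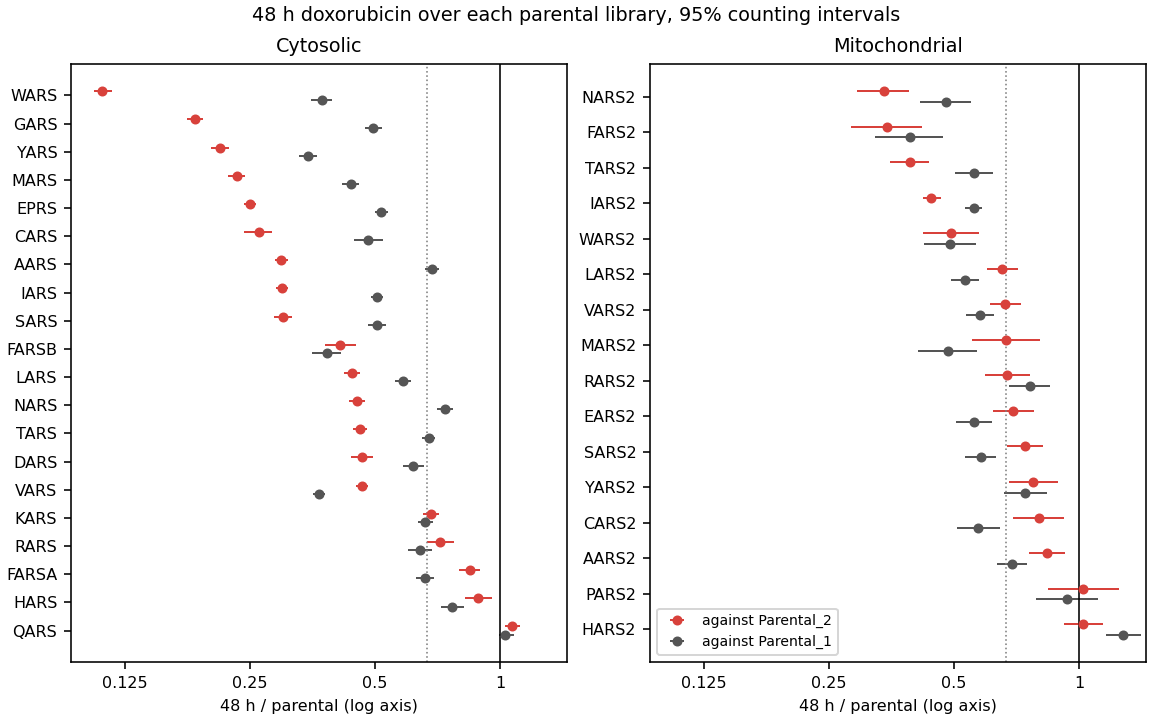
Ratio of the 48 h doxorubicin library to Parental_2 (red) and to Parental_1 (grey) for each synthetase on a log2 axis; bars are 95% counting intervals, the solid line marks no difference and the dotted line a 1.5-fold decrease. WARS lies at 0.110 of Parental_2 and 0.372 of Parental_1, and the grey points of the cytosolic genes spread less than the red ones.

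All 16 mitochondrial enzymes had a log2 fold change below 0 in the clones against Parental_1, with a median of -0.75 beside 0.11 over all genes tested. Of 18232 tested genes found in both tables, 8101 were below 0. Under scaling by library totals HARS2, RARS2 and TARS2 turned to 0.06, 0.13 and 0.03. The lowest of the 16 was FARS2 (chr6:5261044-5829192, plus strand), the single-chain phenylalanine enzyme. It was at 25 CPM in Parental_1 and 28.4 in Parental_2, 6.40, 7.07, 11 and 12.8 in ATC1 to ATC4, and 9.76 at 48 h. Clones and parental libraries did not overlap, and the edgeR log2 fold change was -1.41 (SE 0.46, unadjusted p = 0.0174, adjusted p = 0.380). IARS2 (chr1:220094102-220148041, plus strand), the most abundant mitochondrial member, was at 292 CPM in Parental_1 and 369 in Parental_2, 97.2, 98.1, 147 and 175 in ATC1 to ATC4, and 163 at 48 h. The edgeR log2 fold change was -1.16 (SE 0.37, adjusted p = 0.378), and the 48 h value fell inside the range of the clones. NARS2 (chr11:78435961-78574874, minus strand) was at 37.3 CPM in Parental_1 and 52.8 in Parental_2, 16.8, 13.5, 19.1 and 21.6 in ATC1 to ATC4, and 17.8 at 48 h. Its edgeR log2 fold change was -1.06 (SE 0.34, adjusted p = 0.381) against Parental_1 and -1.33 (adjusted p = 0.049) against both parental libraries, and its adjusted p ran from 0.049 to 0.594 over all settings tried. WARS2 (chr1:119031216-119140671, minus strand) was at 35.9 CPM in Parental_1 and 35.7 in Parental_2, 21.1, 18.5, 13.6 and 20.6 in ATC1 to ATC4, and 17.6 at 48 h, with an edgeR log2 fold change of -0.94 (SE 0.35, adjusted p = 0.403). For these 4 genes the 4 clones and the 48 h library all lay below both parental libraries.

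AARS2, MARS2, YARS2 and HARS2 completed the 8 mitochondrial genes whose clones lay below both parental libraries. For HARS2 the margin was narrow, with log2 ratios to Parental_1 of -0.05 in ATC1 and -0.01 in ATC4. That of MARS2 to Parental_2 was -0.07 in ATC1. Whether these gaps exceed counting error was not tested. AARS2 was at 79.9 CPM in Parental_1 and 65.9 in Parental_2, 35.6, 41.9, 48.1 and 61.4 in ATC1 to ATC4, and 55.1 at 48 h. MARS2 was at 28.5 CPM in Parental_1 and 20.7 in Parental_2, 19.7, 15.7, 13.2 and 16.5 in ATC1 to ATC4, and 13.8 at 48 h, and YARS2 was at 37.7 CPM in Parental_1 and 36.1 in Parental_2, 22.3, 15.1, 19.7 and 32.5 in ATC1 to ATC4, and 28 at 48 h. Their edgeR log2 fold changes were -0.76 (SE 0.33), -0.79 (SE 0.35) and -0.73 (SE 0.42). HARS2 was at 42.2 CPM in Parental_1 and 52.8 in Parental_2, 40.7, 33, 36.9 and 41.9 in ATC1 to ATC4, and 54 at 48 h, with the narrowest range between clones of the class, 1.27-fold. HARS2 was also the mitochondrial member above both parental libraries and all clones at 48 h. Its ratio to Parental_2 was 1.02, with a counting interval of 0.921 to 1.14, so that margin is within counting error.

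Clone ATC4 set several mitochondrial genes apart from the other clones. EARS2, for glutamate, was at 68.3 CPM in Parental_1 and 54.9 in Parental_2, 36.6, 23, 30.2 and 59.6 in ATC1 to ATC4, and 38.1 at 48 h. LARS2, for leucine, was at 117 CPM in Parental_1 and 95.3 in Parental_2, 66, 44.8, 46 and 110.1 in ATC1 to ATC4, and 62.3 at 48 h. SARS2, for serine, was at 85 CPM in Parental_1 and 66.4 in Parental_2, 50, 36.9, 56.5 and 80.1 in ATC1 to ATC4, and 49.2 at 48 h. In each, ATC1 to ATC3 were below both parental libraries and ATC4 lay between them, and the clones of EARS2 spanned a 2.59-fold range. VARS2, at 76.6, 89.2, 91.3 and 117 in ATC1 to ATC4, exceeded both parental libraries in ATC4, the parental values being at 110.0 and 95.6. CARS2 had 32.7, 25.7, 29.9 and 37.8 in the clones beside 46.7 and 33.4 in the parental libraries. RARS2 and TARS2 were the genes in which ATC3 was the highest clone, at 57.4 and 64.5 CPM, with edgeR log2 fold changes of -0.03 (SE 0.42) and -0.14 (SE 0.30). PARS2, for proline, was at 16.8 CPM in Parental_1 and 15.4 in Parental_2, 12.7, 16, 8.80 and 8.61 in ATC1 to ATC4, and 15.7 at 48 h.

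At 48 h the mitochondrial enzymes furthest below Parental_2 were NARS2 at a log2 ratio of -1.56, FARS2 at -1.53, TARS2 at -1.35 and IARS2 at -1.18. Against Parental_1 these were -1.06, -1.35, -0.84 and -0.84. Summed over the class, the 48 h library held 0.589 of the counts of Parental_2 after scaling (95% interval 0.574 to 0.604), and the cytosolic class held 0.351 (0.348 to 0.355). Against Parental_1 the same sums were at 0.605 (0.590 to 0.619) for the mitochondrial and 0.550 (0.544 to 0.555) for the cytosolic class, so the gap between the classes was smaller with that reference. Over the same libraries the share of counts from mitochondrially encoded genes was 4.25% in Parental_2, 5.07% in Parental_1, 5.07% to 9.63% in the clones and 7.49% at 48 h, and its part in the class totals was not tested.

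Nuclear genes that work beside the mitochondrial synthetases were read from a pair of lists, 1 of transamidation and formylation of charged tRNA and 1 of mitochondrial translation factors. QRSL1, a subunit of the amidotransferase that makes glutaminyl-tRNA in mitochondria, was at 47.8 CPM in Parental_1 and 54.2 in Parental_2, 26.3, 25.3, 28.1 and 28.3 in ATC1 to ATC4, and 43.3 at 48 h. PET112, another subunit of that enzyme, and MTFMT, which formylates initiator methionyl-tRNA, had clone values of 22.7, 13.5, 24 and 22.7 and of 8.95, 5.52, 9.36 and 11.2 CPM beside parental values of 38.3 and 34 and of 13.6 and 12.9. All 3 measured members of the first list lay below both parental libraries in every clone, beside 15.9% of expressed genes. Their edgeR log2 fold changes against Parental_1 were -0.81 for QRSL1, -0.87 for PET112 and -0.62 for MTFMT. At 48 h they were close to the parental libraries, at log2 ratios to Parental_2 of -0.32, -0.24 and 0.02. Of 10 mitochondrial translation factors 7 lay below both parental libraries in all clones, beside 15.9% of expressed genes, and MTIF3, MTRF1 and MTRF1L overlapped them. At an unadjusted p under 0.05, 3 were lower, beside 4.28% of all genes, the elongation factors GFM1 and TUFM and the initiation factor MTIF2. TUFM was at 581 CPM in Parental_1 and 531 in Parental_2, 301, 132, 225 and 342 in ATC1 to ATC4, and 335 at 48 h, with a log2 fold change of -1.20 (SE 0.46, adjusted p = 0.406 by edgeR).

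Set side by side, the classes differed against Parental_1 and not in the same way against Parental_2. Against Parental_1 the median log2 ratios of the cytosolic class were -0.34, -0.32, 0.03 and -0.36 in ATC1 to ATC4, and those of the mitochondrial class -0.76, -0.94, -0.93 and -0.34. Against Parental_2 they were -0.95, -0.89, -0.49 and -0.80 for the cytosolic and -0.56, -0.89, -0.72 and -0.33 for the mitochondrial class. The medians over all expressed genes stayed between 0.00 and 0.07 in these 8 comparisons. In the edgeR fit the cytosolic median minus the mitochondrial median was 0.53 with Parental_1, 0.05 with both parental libraries and -0.26 with Parental_2, so the order of the classes turned with the reference. The mitochondrial median itself stayed between -0.87 and -0.51 over all settings tried. All 4 clones lay below Parental_1 for 10 cytosolic and 13 mitochondrial genes, beside 24.8% of expressed genes, and below Parental_2 for 17 and 9, beside 26.5%. The highest clone was ATC3 for 13 of 20 cytosolic genes and ATC4 for 11 of 16 mitochondrial genes.

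**Figure D3:**
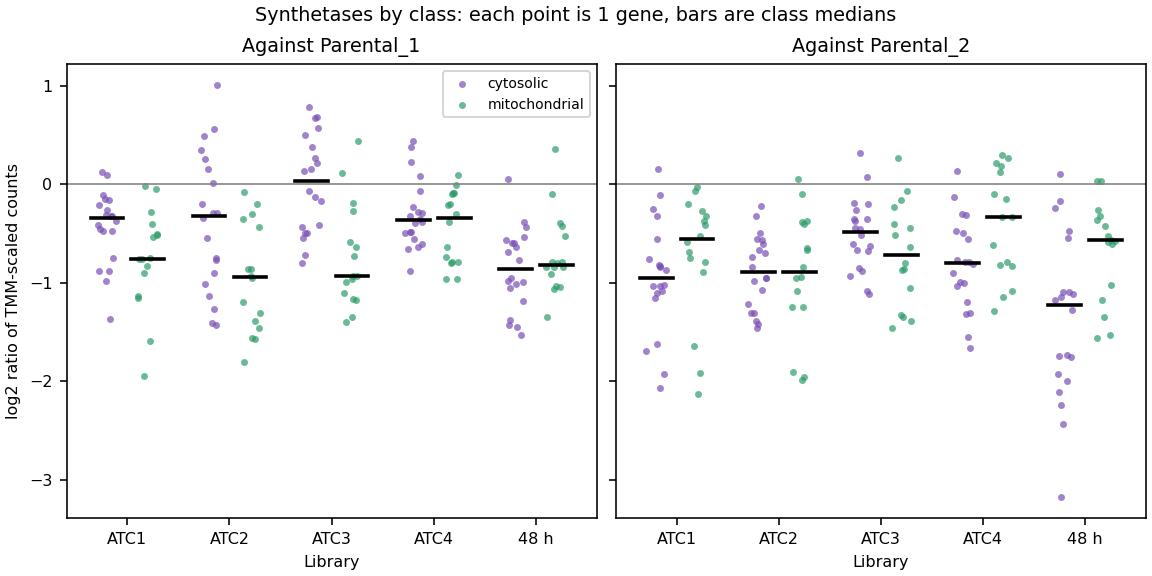
Log2 ratio of TMM-scaled counts of each synthetase (points, purple cytosolic, green mitochondrial; sideways position within a column has no meaning) and the class median (black bar) in each clone and at 48 h, against Parental_1 on the left and Parental_2 on the right. The mitochondrial medians of ATC1 to ATC3 lie between -0.94 and -0.76 against Parental_1, and the cytosolic medians lie at -0.95 to -0.49 in the clones against Parental_2.

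For 13 amino acids both compartments' enzymes were members. The cytosolic partner was at 1.09 (IARS) to 11.3 (VARS) times the RPKM of the mitochondrial one in Parental_1, with a median of 2.88. Against Parental_1 the cytosolic enzyme had the higher log2 ratio in all 4 clones in 7 pairs and the lower in all 4 in 2 pairs, histidine and valine. The pair furthest apart was WARS with WARS2, whose log2 ratios differed by 0.45, 1.96, 2.07 and 1.24 in ATC1 to ATC4, and the pair furthest the other way was VARS with VARS2, at -0.85, -0.71, -0.54 and -0.75. At 48 h the cytosolic partner had the lower ratio in 10 of 13 pairs against each parental library. The log2 differences of those pairs ran from -2.16 (WARS) to -0.2 (HARS) against Parental_2. Against Parental_1 they were mostly smaller, from -1.11 (YARS) to -0.01 (AARS). Asparagine and threonine were exceptions on both, with NARS 0.42 above NARS2 and TARS 0.23 above TARS2 against Parental_2, and 0.62 and 0.27 above them against Parental_1.

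**Figure D4:**
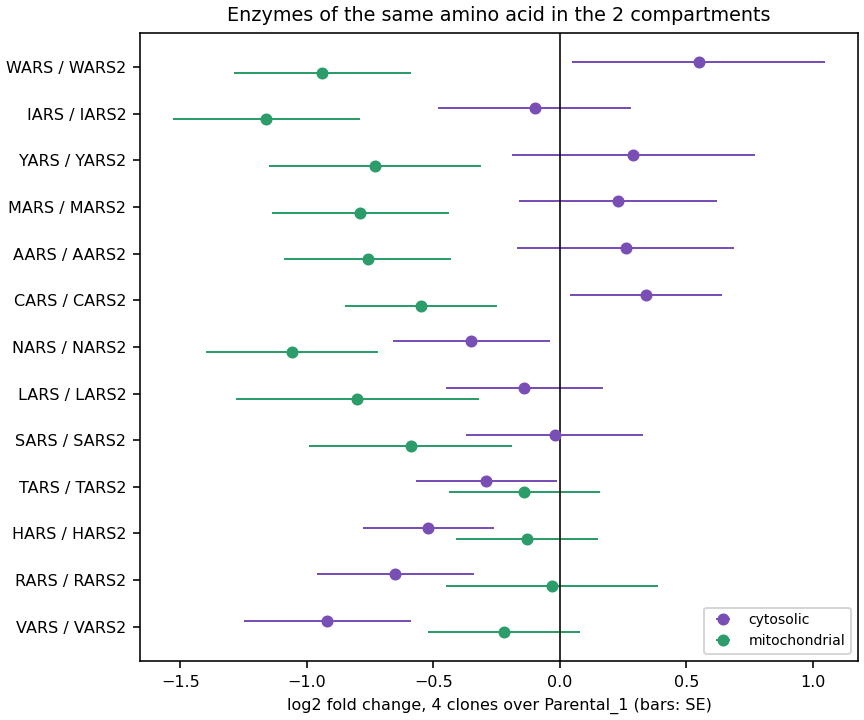
EdgeR log2 fold change of the 4 clones against Parental_1 for the cytosolic (purple) and mitochondrial (green) enzyme of the same amino acid, with standard errors as bars, ordered by the difference. The cytosolic value is the higher one in 9 of 13 pairs, from tryptophan at the top, and the lower one for threonine, histidine, arginine and valine.

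In the comparison of the parental libraries the cytosolic genes with a response-element core all lay on 1 side. The 7 cytosolic genes with the core were higher in Parental_2 than in Parental_1, at log2 ratios of 0.55 to 1.43 with a median of 0.88. The 9 with a window and no core ranged from -0.36 to 1.75 with a median of -0.05, the high end being WARS at 1.75, EPRS at 1.05 and SARS at 0.75. At 48 h against Parental_2 the genes with the core ranged from -2.44 to -1.12 (median -1.75) and those without from -3.18 to 0.10 (median -0.55). Against Parental_1 the ranges were -1.19 to -0.44 and -1.43 to 0.05. In the clones the edgeR log2 fold changes against Parental_1 were -0.35 to 0.34 (median 0.06) with the core and -0.96 to 0.55 (median -0.52) without it. With Parental_2 in place of Parental_1 they were -1.39 (GARS) to -0.55 (CARS) with the core. Without it they were -1.47 (EPRS) to -0.01 (QARS), so the higher place of the genes with the core depended on the reference. YARS2, the mitochondrial gene with the core, was at -0.06 between the parental libraries and -0.36 at 48 h against Parental_2. The 13 mitochondrial genes with a window and no core had medians of -0.01 between the parental libraries and -0.58 at 48 h against Parental_2. These are descriptions of the members that had a window, and the groups share their libraries.

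**Figure D5:**
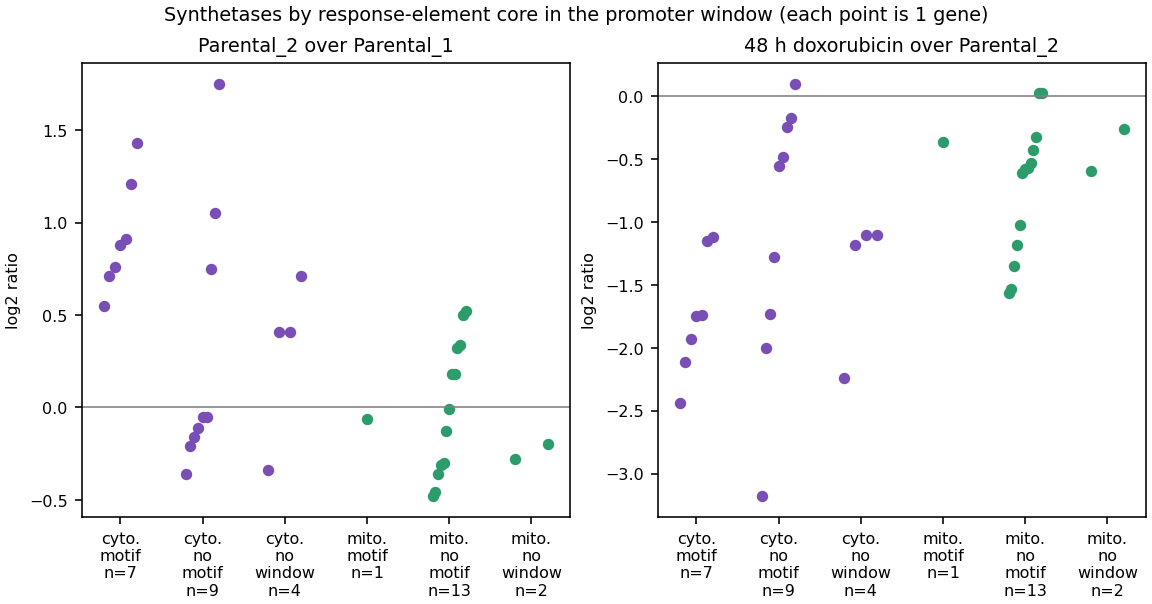
Log2 ratio of Parental_2 to Parental_1 (left) and of the 48 h library to Parental_2 (right) for synthetases grouped by class and by whether a promoter window held the response-element core, held none, or was not among the reference windows; each point is 1 gene, and the points of a column are sorted by value. The 7 cytosolic genes with the core lie at 0.55 to 1.43 on the left and at -2.44 to -1.12 on the right.

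Genes of the amino acid response differed between the parental libraries and at 48 h in the same libraries as the cytosolic synthetases. ATF4 was at 317 CPM in Parental_1 and 417 in Parental_2, 255, 384, 478 and 333 in ATC1 to ATC4, and 90 at 48 h, the 48 h library being the lowest and the clones overlapping the parental libraries. Of 33 ATF4 target genes outside the synthetases, 29 were at least 1.5-fold higher in Parental_2 than in Parental_1, beside 17.2% of expressed genes, with a median log2 ratio of 1.44 over the list. At 48 h, 31 of 32 with enough counts were at least 1.5-fold below Parental_2, beside 22.9% of all genes, and 19 were that far below Parental_1, beside 23.1%. ASNS, asparagine synthetase, was at 162 CPM in Parental_1 and 702 in Parental_2, 254, 479, 549 and 227 in ATC1 to ATC4, and 38.5 at 48 h. SLC7A11, the cystine transporter, was at 67.3 CPM in Parental_1 and 220.0 in Parental_2, 52.7, 94.8, 49.2 and 90 in ATC1 to ATC4, and 9.89 at 48 h. CHAC1, which degrades glutathione, was at 14.7 CPM in Parental_1 and 56 in Parental_2, 7.03, 17.1, 5.52 and 14 in ATC1 to ATC4, and 0.911 at 48 h. ASNS was higher than Parental_1 in all 4 clones and lower than Parental_2, and all 3 genes were lowest at 48 h. In the clones the list had 0 genes past the adjusted threshold of edgeR, 4 higher and 1 lower at an unadjusted p under 0.05 (beside 7.5% and 4.28% of all genes), and a median log2 fold change of 0.15 against Parental_1. With both parental libraries as the reference that median was -0.50 with 1 gene called lower, ATF5, and against Parental_2 the list medians were -1.47, -0.58, -0.72 and -1.07 in ATC1 to ATC4, so the direction turned with the reference. ATF5, also the gene that was lower against Parental_1, was at 222 CPM in Parental_1 and 434 in Parental_2, 87.7, 72.4, 77.8 and 89.8 in ATC1 to ATC4, and 92.2 at 48 h, with an unadjusted p of 0.000625 and an adjusted p of 0.220 by edgeR against Parental_1 and an adjusted p of 0.0186 against both.

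Of 15 genes of the GCN2 and eIF2 list, which holds ATF4 itself, 5 lay below both parental libraries in all clones, beside 15.9% of expressed genes, and 1 above both, beside 17.8%. EIF2AK4, the gene of GCN2, was at 92 CPM in Parental_1 and 90.7 in Parental_2, 55.3, 57, 49.9 and 74.2 in ATC1 to ATC4, and 44.6 at 48 h. PPP1R15A, the stress-induced regulatory subunit that brings a phosphatase to eIF2, was at 138 CPM in Parental_1 and 176 in Parental_2, 285, 469.7, 393 and 221 in ATC1 to ATC4, and 140.0 at 48 h, so that all clones exceeded both parental libraries, with a log2 fold change of 1.33 (SE 0.49, adjusted p = 0.403 by edgeR). XPOT, which exports tRNA from the nucleus, was at 298 CPM in Parental_1 and 604 in Parental_2, 215, 349, 271 and 182 in ATC1 to ATC4, and 148 at 48 h, and its log2 ratios of 1.02 between the parental libraries and -2.03 at 48 h were close to those of EPRS, at 1.05 and -2.0. Of 12 MYC and ribosome biogenesis genes 8 lay below both parental libraries in all clones, beside 15.9% of expressed genes, and 6 were lower at an unadjusted p under 0.05, beside 4.28% of all genes, with a median log2 fold change of -0.87. MYC itself was at 403 CPM in Parental_1 and 315 in Parental_2, 270.3, 219, 93 and 191 in ATC1 to ATC4, and 130.0 at 48 h.

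The chromosomal neighbours of the synthetases lay above Parental_1 for some members and below it for others. K562 is aneuploid, so each member's log2 ratio to Parental_1 was set beside the median of the 10 nearest expressed genes on either side. Over each class the median of these neighbour medians was 0.02, 0.01, 0.03 and -0.02 for the cytosolic and -0.05, 0.02, 0.03 and 0.08 for the mitochondrial class in ATC1 to ATC4. In all 4 clones 11 cytosolic and 13 mitochondrial genes lay below their neighbours, beside 27.3% of 16811 expressed genes. Some members sat in raised stretches, with neighbours of LARS at 0.65, 0.91 and 0.53 in ATC1 to ATC3, of MARS, RARS and HARS2 at 0.82, 0.80 and 0.80 in ATC2, and of VARS at 0.71 in ATC3. Others sat in lower stretches: the neighbours of FARS2 were at -0.53 in ATC1 and -0.59 in ATC3, where FARS2 was at -1.95 and -1.17, those of AARS2 and IARS2 were at -0.65 and -0.57 in ATC1, and those of FARSA were at -0.75 in ATC2. Several members overlap other genes, and no source used here says whether reads were counted by strand. MARS overlaps DDIT3 and ARHGAP9, HARS overlaps HARS2 head to head and WDR55, KARS overlaps TERF2IP, SARS2 overlaps MRPS12, and pseudogene copies exist for AARS, FARSB, GARS, KARS, WARS and IARS2 among others. Counts of these members may hold reads of the other gene, or lose some to it.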

How the data were processed

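RNA-seq libraries from 6 K562 samples were analysed, and the labels' protocols give TRIzol extraction and a stranded mRNA kit. The deposited values are whole counts of reads per gene to which the authors had added 1, with pairs without a read left missing, so 1 was subtracted and missing values were read as 0. The authors' deposited log2 fold changes were not used. Per the submitters' processing notes the genome was GRCh38; the aligner, the counting program and its strand setting are not given in the sources used. The tables' own coordinates do not match it (577 of 32415 starts lay within 10 bases), so positions and exon lengths came by Ensembl ID from GENCODE on GRCh38. The 36 members, the lists and the tests were chosen with earlier results of these data known.

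Tables were joined by Ensembl ID and scaled by TMM. The test of the clones against Parental_1 was that of edgeR 4.0.16 in R 4.3.3 (quasi-likelihood, filterByExpr, Benjamini-Hochberg over all genes, 3 residual degrees of freedom). It was tried on simulated counts that held increases only, all larger than the clone changes of the synthetases. There it recovered the largest changes drawn and few of the smallest, and decreases were not simulated. A missed threshold therefore does not show that levels were alike. The lone parental library is assumed to vary like the clones, and nothing says that clones were sampled more than once, so p-values measure the spread between these libraries. The 48 h library was compared by ratio, with a prior count of 2 on the log2 scale, among genes with at least 20 counts, and 1.5-fold as the threshold. Intervals cover counting error only. Alternatives were DESeq2 1.42.0, limma-voom (limma 3.58.1), other scalings, filters, prior counts and parental references, and leaving out each clone. Named members were those with the 5 highest and 5 lowest clone values and the 4 lowest and 2 highest 48 h ratios per class, the 2 widest clone ranges, any whose clones did not overlap both parental libraries, and GARS and KARS; others are named where their role is described. The symbols GATB, GATC, EEF1G, GCN1 and PECAM1 had no row of that name. Protein sequences were not used here.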

Additional observations from a re-analysis of the deposited data

How the results depend on the processing

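No paired analysis was possible because the numbers of the clones name clones, the numbered parental libraries belong to 1 sample and the 48 h library has no number in its labels. Genes called by edgeR numbered 0 higher and 0 lower; DESeq2 called 464 and 102, both parental libraries as the reference gave 248 and 97, no filter gave 0 and 2, and leaving out 1 clone gave 0 to 49 and 0 to 35, the highest without ATC4. Synthetases called lower were 0 except for 1, NARS2 (-1.33), with both parental libraries. The cytosolic median in the clones (-0.21) moved to -0.76 with Parental_2 and -0.56 with both, and the difference between classes (0.53) to -0.26 and 0.05. Parental_2 turned AARS to -0.97, CARS to -0.55, GARS to -1.39, MARS to -0.70, WARS to -1.23 and YARS to -0.43, and with both libraries these were -0.48, -0.16, -0.83, -0.30, -0.59 and -0.11. Scaling by library totals moved the median of all genes from 0.11 to 0.29 and turned IARS to 0.08, LARS to 0.03, QARS to 0.12, SARS to 0.15, HARS2 to 0.06, RARS2 to 0.13 and TARS2 to 0.03. Leaving out 1 clone at a time gave SARS -0.19 to 0.07, QARS -0.17 to 0.09, RARS2 -0.24 to 0.11, IARS -0.20 to 0.01 and GARS -0.13 to 0.13, so their signs are not settled. At 48 h the cytosolic median (-1.23) was -0.86 against Parental_1, -1.21 against the mean of both or with DESeq2 size factors, and -1.02 with library totals. The mitochondrial median (-0.57) was -0.82, -0.69 against the mean, and -0.37 with library totals, and the difference between classes (-0.65) was -0.04 against Parental_1 and -0.52 against the mean. Mitochondrial genes at least 1.5-fold lower at 48 h numbered 11 against Parental_1 in place of 7. Mitochondrial genes with all clones below both parental libraries (8) numbered 4 with library totals and 8 to 13 when a clone was left out. Apart from the parental reference and library totals, whose construction sets the shift, the cause was not tested. Leaving out 1 clone kept the mitochondrial median between -0.87 and -0.66. The single 48 h library and the parental libraries, which differ in the cytosolic genes, limit the precision more than depth does for these well counted genes.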
